A study of Mus musculus with 23 samples.

Results

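Described here are 9 genes for receptors of motor neuron survival factors and of the hormone FGF21: Ret, Gfra1 and Gfra2 for the GDNF family, Met for HGF, Cntfr, Lifr and Il6st for CNTF, and Klb and Fgfr1 for FGF21. They were picked out by gene symbol, and all 9 were found among the 38924 gene identifiers of the deposited tables.

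GDNF and neurturin are secreted by muscle and glia and bind the GPI-anchored co-receptors GFRα1 and GFRα2, which then engage the RET tyrosine kinase. HGF acts through the MET tyrosine kinase. CNTF binds its anchored receptor CNTFRα, which recruits LIFRβ and gp130, the signalling chain encoded by Il6st and shared by the interleukin 6 family. FGF21 is a circulating hormone that needs the co-receptor β-Klotho (Klb) beside an FGF receptor, mainly FGFR1, on the receiving cell. Motor neurons are known to respond to GDNF, HGF and CNTF as survival factors.

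RNA bound to ribosomes was precipitated from spinal cords of mice aged 2 weeks with an antibody to the HA tag, a RiboTag experiment in which Cre recombinase switches on an HA-tagged Rpl22 protein in the cells that make it. The mutant carries the GarsC201R allele of the glycyl-tRNA synthetase gene, a mouse model of inherited peripheral neuropathy. The labels give 6 mutant libraries with ChAT-Cre (genotype Rpl+/-;Chat+/-;C201R+/-), 5 wild-type libraries with ChAT-Cre (Rpl+/-;Chat+/-;C201R+/+), 6 mutant libraries without Cre (Rpl+/-;Chat+/+;C201R+/-) and 6 wild-type libraries without Cre (Rpl+/-;Chat+/+;C201R+/+). All 23 shared one tagged Rpl22 allele and the strain background B6.CgxB6.129, so both genotypes without Cre are precipitates in which no tagged ribosome is made. ChAT-Cre acts in all cholinergic cells, hence in cholinergic interneurons and autonomic neurons of the cord as well as in motor neurons.

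The libraries held 9031654 to 19671869 estimated counts, of which 50.6 to 95.6% fell on ribosomal RNA genes, and 594383 to 6237428 counts remained per library. Summed levels of 17 motor neuron and cholinergic markers were 238 to 722 CPM (counts scaled to library size with TMM factors) in mutant Cre libraries, 648 to 954 CPM in wild-type Cre libraries, 39.4 to 60.0 CPM in mutant libraries without Cre and 36.7 to 90.3 CPM in wild-type libraries without Cre. Glial RNA was unequal among the Cre libraries: 14 oligodendrocyte markers summed to 5424 and 7455 CPM in mutant Cre replicates 4 and 6, to 835 to 2204 CPM in the other 4 mutant Cre libraries, to 3146 CPM in wild-type Cre replicate 2 and to 576 to 800 CPM in the other 4 wild-type Cre libraries. Mutant Cre replicates 4 and 6 share the number 18405 at the head of their titles, whose meaning the labels do not give. Gars itself did not differ between mutant and wild-type Cre libraries beyond the spread between libraries (70.1 ± 21.4 CPM and 57.9 ± 10.5 CPM, SD, n = 6 and 5; edgeR adjusted p = 0.532), and the allele is a substitution that gene counts cannot read. In precipitates, more RNA per cell, more labelled cells and less background RNA cannot be told apart.

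**Figure D1:**
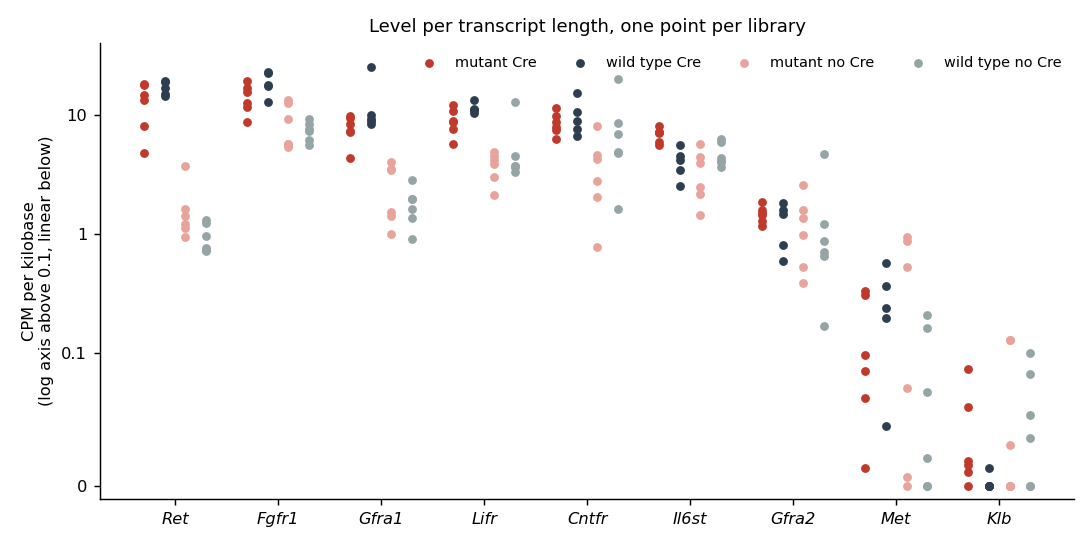
Level of each receptor gene as TMM-scaled CPM per kilobase of estimated transcript length, one point per library in 4 groups, on an axis that is logarithmic above 0.1. Ret and Fgfr1 lead in the Cre libraries, while Met lies below 1 and Klb below 0.15 in every library.

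Per transcript length, Fgfr1, Ret, Gfra1, Lifr and Cntfr were the leading receptors in the Cre libraries, and Gfra2, Met and Klb were the lowest; Il6st overlapped the leading group in mutants and lay below it in wild type. In wild-type Cre libraries, Fgfr1 had 18.5 ± 4.15 CPM per kilobase, Ret 16.7 ± 2.14, Gfra1 12.2 ± 7.13, Lifr 11.3 ± 1.18 and Cntfr 9.77 ± 3.39 (SD, n = 5). Gfra1 lay above Lifr in replicate 1 only, at 24.9 CPM per kilobase from 135 counts and an estimated length of 1214 bases. Fgfr1 lay above Ret in 2 of these libraries. Neighbours in the order of the means overlapped in their ranges. Below them, Il6st had 4.02 ± 1.15, Gfra2 1.25 ± 0.523, Met 0.283 ± 0.196 and Klb 0.00265 ± 0.00592 CPM per kilobase in the same libraries, and each of these 4 ranges lay wholly below the range of the gene before it. In mutant Cre libraries the first 6 ran Fgfr1 (14.0 ± 3.85), Ret (12.7 ± 5.38), Lifr (8.90 ± 2.25), Cntfr (8.53 ± 1.79), Gfra1 (7.69 ± 1.96) and Il6st (6.81 ± 0.916 CPM per kilobase, SD, n = 6), each overlapping the next. Gfra2 at 1.46 ± 0.239 CPM per kilobase lay below all 6 and Met at 0.151 ± 0.135 below Gfra2, while Klb at 0.0320 ± 0.0342 overlapped Met. The estimated lengths that divide these levels also differed between Cre and no Cre for some receptors, as given below. Without Cre the order was different, with Fgfr1 (8.62 ± 3.61) on top in mutants and Cntfr (7.75 ± 6.37) and Fgfr1 (7.35 ± 1.34) overlapping at the top in wild type (SD, n = 6 each). There Ret ranked sixth of 9 in mutants at 1.66 ± 1.01 and seventh in wild type at 0.953 ± 0.261 CPM per kilobase.

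The comparison of Cre with no Cre asks which receptor RNAs sat on the tagged ribosomes of cholinergic cells above the background of the precipitate. Ret, Gfra1, Cntfr and Fgfr1 rose with Cre over both genotypes, which is 4 of the 8 receptors that passed the filter on low counts, and no receptor fell. Over all 14468 genes tested in that 4-group fit, 22.1% were called higher and 34.7% lower (edgeR's quasi-likelihood test, Benjamini-Hochberg adjusted p under 0.05). The median log2 fold change was 0.53 for the 8 receptors and -0.28 for all genes. Within mutants, 3 of 7 receptors tested rose (Ret, Gfra1 and Cntfr), against a background of 14.1% of 12741 genes called higher and 19.2% lower. Within wild type, 3 of 7 rose (Ret, Gfra1 and Fgfr1) and 1 fell (Il6st), against 20.0% of 12485 genes called higher and 25.9% lower. These comparisons share no libraries, and the test of their difference is given after the genotype effects.

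**Figure D2:**
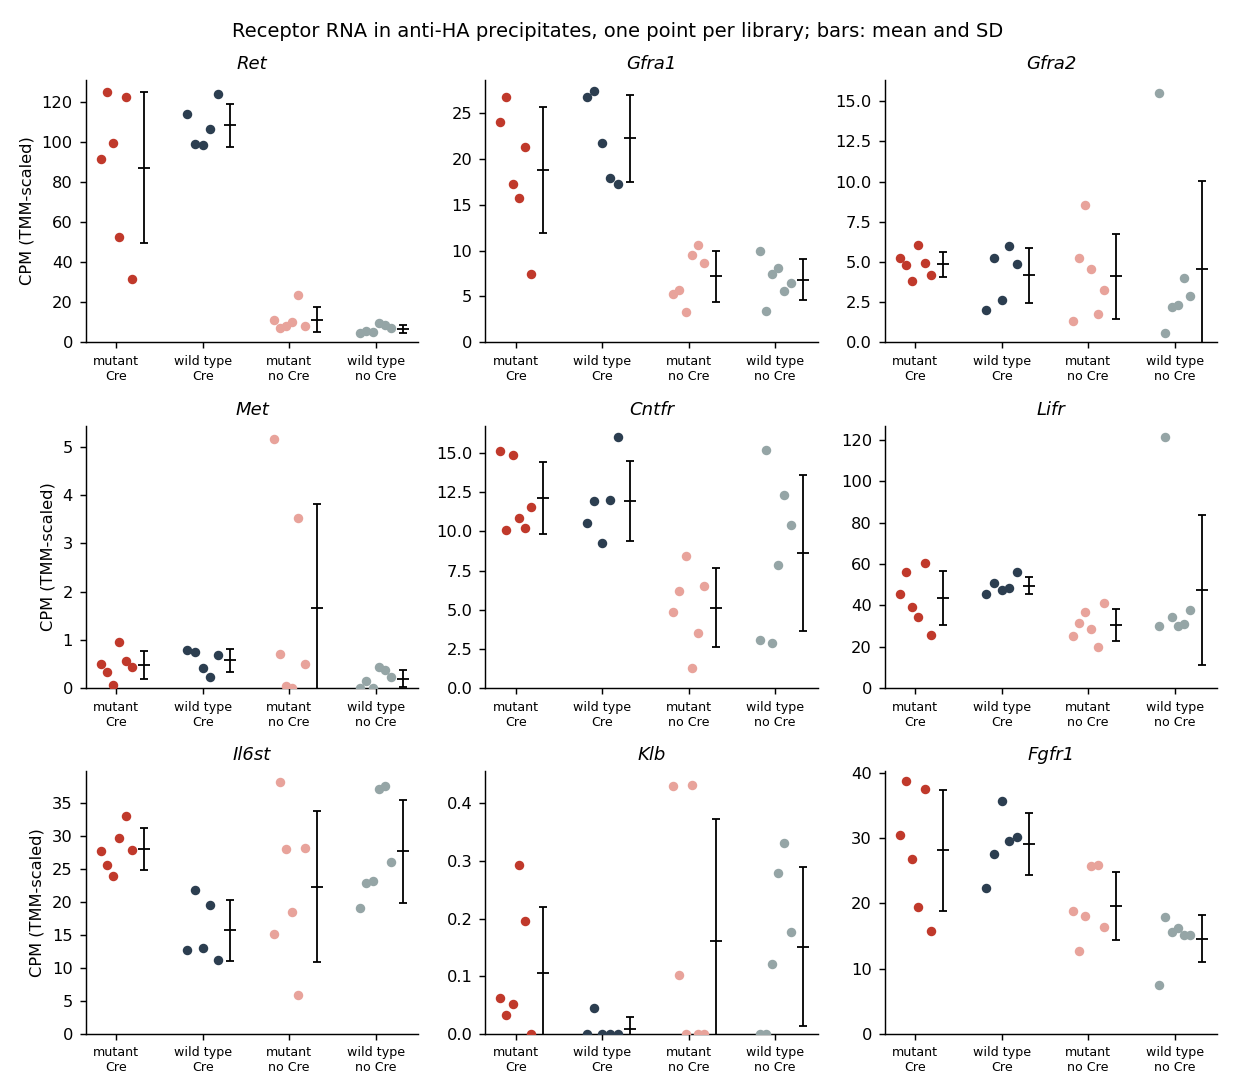
TMM-scaled CPM of the 9 receptor genes, one point per library in the order mutant Cre, wild-type Cre, mutant without Cre, wild type without Cre, with the mean and SD beside each group; bars that would reach below 0 end at the axis. Ret separates Cre from no Cre in both genotypes, and Il6st separates mutant Cre from wild-type Cre.

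Ret (ENSMUSG00000030110, chr6:118151745-118197718, minus strand), the signalling kinase of the GDNF receptor, had the largest Cre effect of the receptors tested. Positions are those of GENCODE M21 on GRCm38, matched by gene identifier. It ran from 31.7 to 125 CPM in the 6 mutant Cre libraries with a median of 95.3 CPM, against 6.82 to 23.5 CPM in the 6 mutant libraries without Cre with a median of 9.13 CPM. In wild type it stood at 114, 99.1, 98.2, 106 and 124 CPM in the 5 Cre libraries, against 4.79 to 9.34 CPM without Cre, with a median of 6.13 CPM. No Cre library overlapped a library without Cre in either genotype, which held in the upward direction for 9.71% of genes in mutants and 13.3% in wild type, and in the downward direction for 7.83% and 14.8%. The log2 fold change was 2.95 in mutants (SE 0.38, adjusted p = 3.89e-05) and 4.07 in wild type (SE 0.26, adjusted p = 4.70e-08), a change of 16.8-fold in wild type by edgeR's quasi-likelihood test. By size of increase, Ret ranked 83 of 12741 genes in mutants and 57 of 12485 in wild type. Its background level without Cre was not 0: 33 to 238 counts per library in wild type and 40 to 181 in mutants. The spread of Ret among mutant Cre libraries came with 2 low values, 52.2 CPM in replicate 4 and 31.7 CPM in replicate 6. These are the libraries with the most glial marker RNA and, in replicate 6, with the lowest motor neuron marker sum of 238 CPM. The part of that RNA in the Ret values was not tested. Without all libraries of title number 18405, which are those 2 and 1 mutant library without Cre, the Ret log2 fold change in mutants was 3.32 (adjusted p = 2.64e-05).

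Gfra1 (ENSMUSG00000025089, chr19:58235604-58455909, minus strand), the co-receptor that presents GDNF to RET, rose in both genotypes by less than Ret. It had 7.47 to 26.8 CPM in mutant Cre libraries (median 19.3), against 3.28 to 10.6 CPM in mutant libraries without Cre (median 7.20). In wild type it had 26.8, 27.5, 21.8, 18.0 and 17.3 CPM with Cre, against 3.35 to 10.0 CPM without (median 6.99). The wild-type groups were separate, and in mutants the single overlap came from Cre replicate 6, again the lowest library. The log2 fold changes were 1.37 in mutants (SE 0.34, adjusted p = 0.00576) and 1.78 in wild type (SE 0.29, adjusted p = 0.000136) by edgeR's test. Gfra2 (ENSMUSG00000022103, chr14:70890120-70979838), the neurturin co-receptor, showed no call in either genotype, at 4.85 ± 0.794 CPM in mutant Cre libraries, 4.15 ± 1.74 CPM in wild-type Cre libraries, 4.10 ± 2.66 CPM in mutants without Cre and 4.57 ± 5.48 CPM in wild type without Cre (SD, n = 6, 5, 6 and 6). Its average Cre effect was 0.04 on the log2 scale, with a 95% interval of -0.69 to 0.77 that a change of either sign could occupy.

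Across all 23 libraries the log2 levels of Ret and Gfra1 had a Pearson r of 0.89, and over the 11 Cre libraries alone r was 0.82. Over the same Cre libraries Ret had r = 0.94 with Lifr and r = 0.84 with Fgfr1, but 0.07 with Cntfr and -0.40 with Il6st. These values describe libraries that share Cre status, depth and marker content, and genes were not tested for shared control. Of 11203 genes compared over 23 libraries, Rtn1, Susd2 and Arhgap36 were most like Ret (r = 0.97 each), and Vstm2a, Rufy3 and Ifitm10 most like Gfra1 (r = 0.92 each). Within the 11 Cre libraries the nearest to Ret were Stmn2, Slc25a12 and Ccdc92 (r = 0.98 each), and the nearest to Lifr were Akap6 and Kcnc4 (r = 0.98 each) and Dnajc5 (r = 0.96). Larp1 (r = 0.91 over 23 libraries) and Mtmr4 and Shc2 (r = 0.96 each over 11) led for Fgfr1. For Il6st they were Osgin2 (r = 0.89 over 23) and Mfap3 (r = 0.96 over 11), and for Cntfr they were Nrp1 and Skiv2l2 (r = 0.89 each over 23).

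Fgfr1 (ENSMUSG00000031565, chr8:25513654-25575718), the tyrosine kinase that pairs with β-Klotho, rose with Cre in wild type, with a log2 fold change of 1.08 (SE 0.25, adjusted p = 0.00252). It had 22.4, 27.6, 35.8, 29.6 and 30.3 CPM in wild-type Cre libraries, against 7.54 to 17.9 CPM in wild-type libraries without Cre with a median of 15.4 CPM. All 5 Cre libraries lay above all 6 without Cre. In mutants the Cre libraries ran from 15.8 to 38.7 CPM (median 28.6), against 12.7 to 25.8 CPM without Cre (median 18.4), and the groups overlapped. There the log2 fold change of 0.48 (SE 0.26) was not called (adjusted p = 0.176). It was called without title number 18405 (0.76, adjusted p = 0.0267), and also without mutant Cre replicate 6 (0.77, adjusted p = 0.0221), without mutant no-Cre replicate 4 (0.74, adjusted p = 0.0391) or without mutant no-Cre replicate 5 (0.74, adjusted p = 0.0311). Both genotypes together gave 0.77 (SE 0.18, adjusted p = 0.000719).

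Cntfr (ENSMUSG00000028444, chr4:41657498-41697089, minus strand), the anchored binding subunit for CNTF, rose in mutants, with a log2 fold change of 1.13 (SE 0.33, adjusted p = 0.0156). It had 10.1 to 15.1 CPM in mutant Cre libraries (median 11.2), against 1.29 to 8.46 CPM in mutant libraries without Cre (median 5.52), with no overlap. In wild type it had 10.5, 11.98, 9.27, 12.02 and 16.0 CPM with Cre, against 2.89 to 15.2 CPM without Cre (median 9.14). These wild-type groups overlapped and the log2 fold change of 0.54 (SE 0.40) was not called (adjusted p = 0.284). In mutants only title number 18405 occurs in both groups, so the setting with the title number as a block kept 2 Cre libraries and 1 without. That fit held no block, and its log2 fold change was 0.88. With the title number as a block over both genotypes, the call was lost (0.85, adjusted p = 0.0970, against 0.82 and adjusted p = 0.00975 without the block). With library totals in place of TMM factors the call over both genotypes was lost as well (1.23, adjusted p = 0.0679).

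Lifr (ENSMUSG00000054263, chr15:7090614-7197489), the second chain of the CNTF receptor and the receptor of LIF, gave no call for its amount. It had 25.9 to 60.4 CPM in mutant Cre libraries (median 42.5), against 20.0 to 41.2 CPM in mutant libraries without Cre (median 30.0). In wild type it had 45.6, 50.9, 47.3, 48.2 and 56.0 CPM with Cre, against 29.9 to 121.6 CPM without Cre (median 32.8). The highest value of all 23 belonged to wild-type no-Cre replicate 2, and the other 5 wild-type libraries without Cre lay below all 5 with Cre. The log2 fold changes were 0.45 in mutants (adjusted p = 0.163) and 0.15 in wild type (adjusted p = 0.741) by edgeR's test. Without that 1 library, the wild-type value was 0.67 (adjusted p = 0.00673) and the value over both genotypes 0.55 (adjusted p = 0.00336). In mutants the value was 0.79 (adjusted p = 0.0295) without title number 18405 and 0.72 (adjusted p = 0.0240) without Cre replicate 6 alone. Replicate 6 had the lowest Lifr level of the mutant Cre libraries, as it had for Ret and Gfra1.

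The form of the Lifr transcript, as the deposited tables estimate it, did separate Cre from no Cre. For each gene and library the tables give a mean transcript length, weighted by the estimated share of each annotated transcript, so a shift of that length is a shift in the estimated mix. The Lifr length was 4680 to 5789 bases in mutant Cre libraries (median 4773), against 6014 to 9655 bases in mutant libraries without Cre (median 8813). In wild type it was 4258, 5125, 4469, 4542 and 4337 bases with Cre, against 8490 to 9623 bases without Cre (median 8936). All 11 Cre libraries thus lay below all 12 without Cre. The log2 ratio of the mean lengths, Cre over no Cre, was -0.75 in mutants (exact permutation test, two-sided p = 0.00216, n = 6 and 6) and -0.99 in wild type (exact p = 0.00433, n = 5 and 6), which are the smallest p-values these designs allow among 28 such length tests, unadjusted. Of 3957 genes with a variable length and at least 5 counts in every library, 4.30% were shorter and 3.79% longer with Cre without overlap in mutants, and 6.37% shorter and 2.68% longer in wild type. Leaving out each library in turn gave log2 ratios of -0.85 to -0.71 in mutants and -1.03 to -0.96 in wild type. Mutant Cre replicates 4 and 6, with the most glial marker RNA, had 4680 and 4733 bases; the part of glial RNA in the lengths was not tested. Genotype made no such separation: with Cre the mean length was 5002 ± 444 bases in mutants and 4546 ± 342 bases in wild type (SD, n = 6 and 5; exact p = 0.0823), with 0.329% of genes shorter and 0.581% longer without overlap. Without Cre these shares were 0.101% and 0.0505%, and the Lifr groups overlapped.

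**Figure D3:**
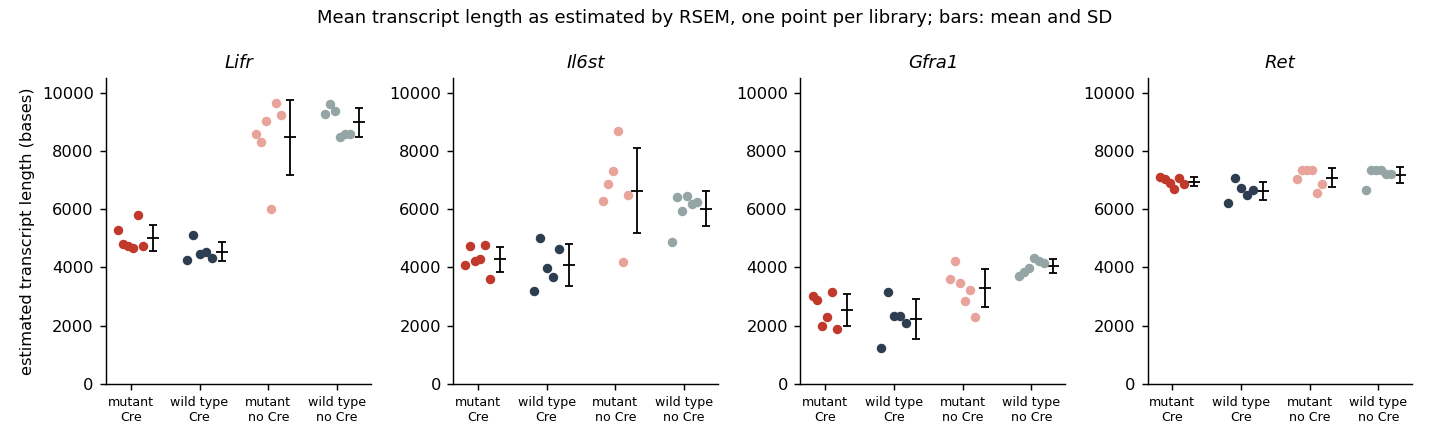
Mean transcript length in bases that RSEM assigned to Lifr, Il6st, Gfra1 and Ret, one point per library in 4 groups, with the mean and SD beside each group. For Lifr all 11 Cre libraries lie at 5789 bases or less and all 12 libraries without Cre at 6014 bases or more.

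The tables list 3 Lifr transcripts, all annotated as protein coding in GENCODE M21 on GRCm38. Transcripts of 4143 bases (chr15:7129559-7191743) and 2844 bases (chr15:7129572-7185343) begin next to each other on the plus strand. The transcript of 9655 bases (chr15:7154353-7197489) begins 24794 bases downstream of the 4143-base one and ends 5746 bases beyond it. A library at 9655 bases, such as mutant no-Cre replicate 5 with 34 Lifr counts, had all of its reads assigned to the longest transcript. The Lifr counts were whole numbers in all 11 Cre libraries and fractional, as RSEM gives where reads are divided among genes, in 5 of 6 mutant and 5 of 6 wild-type libraries without Cre. Whether those shared reads or coverage along the transcript set the length was not tested. Il6st was also shorter with Cre, at 4282 ± 430 bases against 6643 ± 1467 bases in mutants (SD, n = 6 each; exact p = 0.0108) and 4096 ± 726 bases against 6021 ± 598 bases in wild type (n = 5 and 6; exact p = 0.00866), but the groups overlapped in both genotypes. Gfra1 was shorter without overlap in wild type, at 2225 ± 700 bases with Cre against 4042 ± 240 bases without (n = 5 and 6; exact p = 0.00433). In mutants its groups overlapped, at 2542 ± 552 and 3281 ± 654 bases (n = 6 each; exact p = 0.0628). The length of Ret changed less, by -0.03 on the log2 scale in mutants and -0.12 in wild type, and Gfra2 and Klb have 1 transcript in the tables and no length to compare.

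Promoter sequence from RefSeq, in GRCm38.p6 coordinates, is given for the 3 receptors whose estimated lengths moved, since their annotated starts differ between transcripts. Each line is the 250 bases before an annotated start, 5′ to 3′ on the gene's strand, with the GC box GGGCGG in capitals on either strand. The first Lifr window, chr15:7129322-7129571 on the plus strand, lies at the start of the 4143-base and 2844-base transcripts. The second Lifr window, chr15:7140292-7140541 on the plus strand, precedes a RefSeq start that is at the beginning of no transcript in the tables. The Il6st window is chr13:112463820-112464069 on the plus strand, just before the start of the 8678-base Il6st transcript, while the 5207-base one begins 10938 bases downstream. Shorter Il6st transcripts of 2985, 3004 and 3009 bases begin close to the 8678-base one, at positions 112464081, 112464112 and 112464241. A shorter estimated length therefore need not mean a different start. The Gfra1 window is chr19:58455399-58455648 on the minus strand, just before the start of the 4641-base Gfra1 transcript.
Lifr upstream start: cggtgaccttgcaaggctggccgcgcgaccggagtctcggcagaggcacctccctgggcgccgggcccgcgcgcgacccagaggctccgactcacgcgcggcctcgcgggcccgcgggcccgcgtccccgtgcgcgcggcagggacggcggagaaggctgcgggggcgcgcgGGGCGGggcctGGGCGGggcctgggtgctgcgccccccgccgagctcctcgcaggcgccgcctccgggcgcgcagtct
Lifr downstream start: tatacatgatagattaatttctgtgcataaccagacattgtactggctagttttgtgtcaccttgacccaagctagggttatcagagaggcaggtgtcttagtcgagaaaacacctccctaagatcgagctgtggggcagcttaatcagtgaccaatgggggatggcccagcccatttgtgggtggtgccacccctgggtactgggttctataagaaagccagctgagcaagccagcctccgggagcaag
Il6st: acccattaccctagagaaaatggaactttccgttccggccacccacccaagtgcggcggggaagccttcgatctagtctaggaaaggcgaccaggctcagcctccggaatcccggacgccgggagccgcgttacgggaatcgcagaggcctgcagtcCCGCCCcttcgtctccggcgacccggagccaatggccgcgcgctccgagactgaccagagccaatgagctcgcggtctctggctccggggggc
Gfra1: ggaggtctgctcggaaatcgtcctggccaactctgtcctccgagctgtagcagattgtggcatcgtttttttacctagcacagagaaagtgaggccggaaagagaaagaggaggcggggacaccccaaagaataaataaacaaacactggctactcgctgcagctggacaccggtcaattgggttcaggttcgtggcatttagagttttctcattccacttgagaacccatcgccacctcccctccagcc
The upstream Lifr window holds 2 GC boxes and is 82.4% G and C, while the downstream window holds none and is 50.8%, against a median of 52.4% over all 32851 mouse promoter windows of that length. The Il6st window holds 1 GC box, read on the minus strand as CCGCCC, and the Gfra1 window none. The GC box occurs in 32.7% of all windows. The LIM homeodomain core TAATTA (4.84% of windows) and the ATF4 composite core TGATGNAA (3.45%) were searched on both strands and lie in none of the 12 windows of Gfra1, Met, Cntfr, Lifr, Il6st and Klb, which says only that these letters are not there. Ret, Gfra2 and Fgfr1 were not matched.

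The comparison of mutant with wild type among Cre libraries asks what the Gars allele changed on tagged ribosomes before disease onset, the stage named in the study's title. None of the 7 receptors tested was called, against 0.331% of 12399 genes called in either direction (41 genes, edgeR adjusted p under 0.05), 0.234% higher and 0.0968% lower. At an unadjusted p under 0.05, 1 receptor passed (Il6st), as did 2113 of all genes. DESeq2 called the same 1 receptor, and 413 of all genes. The median log2 fold change was -0.06 over the 7 receptors and 0.06 over all genes.

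**Figure D4:**
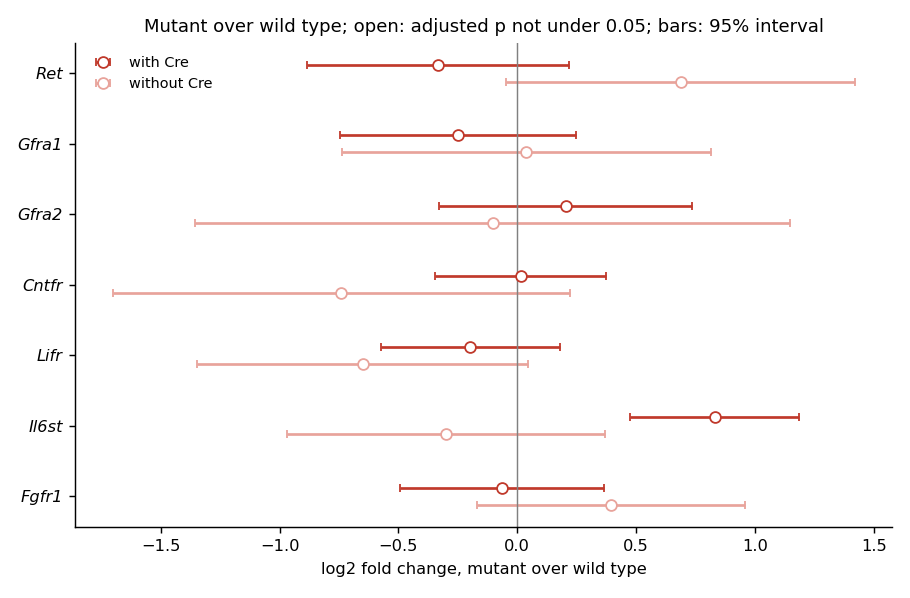
Log2 fold change of mutant over wild type for the 7 receptor genes tested, with Cre and without Cre, with 95% intervals (1.96 standard errors to each side). All points are open, since no adjusted p was under 0.05, and Il6st with Cre at 0.83 is the only one whose interval lies clear of 0 with Cre.

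Il6st (ENSMUSG00000021756, chr13:112464070-112510086), which encodes gp130, had the largest genotype difference of the 7. It stood at 23.9 to 33.1 CPM in the 6 mutant Cre libraries with a median of 27.8 CPM, against 12.7, 21.8, 13.1, 19.6 and 11.3 CPM in the 5 wild-type Cre libraries. The groups did not overlap, the mutants being above, which was so for 1.09% of genes, while 1.19% had all mutants below. The log2 fold change was 0.83 (SE 0.18, unadjusted p = 0.000378), and the adjusted p of 0.0709 missed the threshold in edgeR's test. DESeq2 gave 0.81 and called it (adjusted p = 0.00488), as 1 of 413 genes. Leaving out each library in turn gave 0.73 to 0.95 with adjusted p of 0.0113 to 0.194. The call was made only without wild-type Cre replicate 2 (adjusted p = 0.0113), in a fit that called 1054 genes in all. That replicate had the highest glial marker sums and the highest Il6st level of the wild-type Cre libraries. It was also the deepest of them, with 4466014 counts outside ribosomal RNA genes. The remaining wild-type Cre libraries held 1213587 to 2825068 such counts, less than any mutant Cre library (2927104 to 6237428). The part of depth in the Il6st difference was not tested. The difference was 0.78 without the 2 mutant libraries of title number 18405 (adjusted p = 0.157), while wild-type Cre replicate 2 stayed in that fit; the part of glial RNA in the difference was not tested. It was 1.07 within title number 20302 and 0.72 within 20401 (difference of mean log2(CPM + 1), 2 mutant and 2 wild-type libraries each). With the title number as a block it was 0.90 (adjusted p = 0.230).

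Without Cre, Il6st did not show that order: it had 5.87 to 38.2 CPM in mutants (median 23.3) and 19.2 to 37.7 CPM in wild type (median 24.6), a log2 fold change of -0.30 (SE 0.34, adjusted p = 0.975). The wild-type Cre libraries were the low group, and within wild type Il6st fell with Cre, with a log2 fold change of -0.75 (SE 0.27, adjusted p = 0.0319). In mutants the Cre effect was 0.24 (SE 0.31, adjusted p = 0.572). The fall in wild type was no longer called without Cre replicate 1, 3 or 5 or no-Cre replicate 4 or 5 (adjusted p 0.0597 to 0.105), nor without a filter on low counts (adjusted p = 0.102). The difference of the 2 genotype effects, with Cre minus without Cre, was 1.11 for Il6st (SE 0.42, unadjusted p = 0.0127, adjusted p = 0.376) and was not called.

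The other receptors lay close together in the 2 genotypes with Cre. Ret averaged 87.0 ± 37.8 CPM in mutants and 108 ± 10.8 CPM in wild type (SD, n = 6 and 5), a log2 fold change of -0.33 with a 95% interval of -0.88 to 0.22 (adjusted p = 0.541). Without title number 18405 it was -0.01. Gfra1 gave -0.25 (interval -0.75 to 0.25), Gfra2 0.20 (-0.33 to 0.74), Cntfr 0.01 (-0.35 to 0.37), Lifr -0.20 (-0.57 to 0.18) and Fgfr1 -0.06 (-0.49 to 0.36). A loss or gain of 2-fold therefore lay outside each of these 6 intervals, while each still held some smaller changes of either sign. Without Cre, 0 of 7 receptors were called in mutant over wild type, against 0.00% of 12588 genes (0 of the receptors and 565 of all genes at an unadjusted p under 0.05), and DESeq2 called 0 receptors. The 95% intervals without Cre did reach a 2-fold change for Cntfr (-1.70 to 0.22) and Lifr (-1.35 to 0.05). They also reached it for Ret (-0.05 to 1.42) and Gfra2 (-1.36 to 1.15), but not for Gfra1, Fgfr1 and Il6st. None of the 7 separated the genotypes without Cre, where 0.0794% of genes had all mutants above and 0.0953% all mutants below.

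The difference of the genotype effects, equal to the Cre effect in mutants minus that in wild type, was called for 0 of 8 receptors, against 0.0207% of 14468 genes, 0.0138% higher and 0.00691% lower. At an unadjusted p under 0.05, 1524 of all genes passed and 3 receptors did: Ret (-0.97, SE 0.44, adjusted p = 0.446), Met (-3.01, SE 1.31, adjusted p = 0.437) and Il6st. The larger Cre effect of Ret in wild type was thus not shown to differ from that in mutants. The Met estimate rests on few counts, and DESeq2 called 0 receptors here as well, against 42 of all genes.

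**Figure D5:**
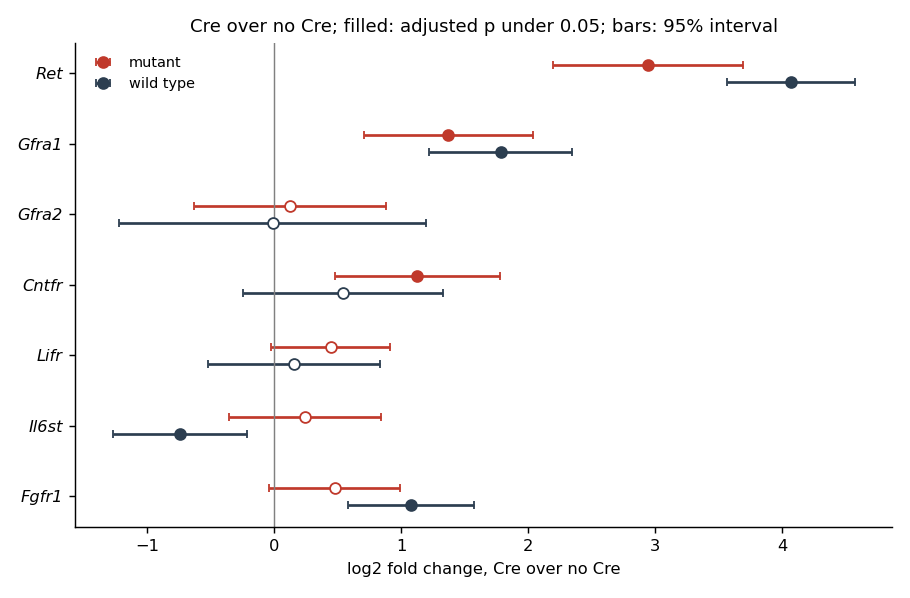
Log2 fold change of Cre over no Cre for the 7 receptor genes tested within each genotype, mutant above wild type, with 95% intervals (1.96 standard errors to each side); filled points have an adjusted p under 0.05. Ret lies farthest right in both genotypes and Il6st is the only filled point left of 0.

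Met and Klb were too low for the fits between 2 groups. Met, the HGF receptor, had 1 to 26 counts per library in mutant Cre libraries (77 in all), 4, 17, 5, 3 and 6 in wild-type Cre libraries, 0 to 36 in mutant libraries without Cre (64 in all) and 0 to 11 in wild-type libraries without Cre (27 in all). In wild type its level was 0.572 ± 0.243 CPM with Cre and 0.194 ± 0.184 CPM without, a difference of 0.40 in mean log2(CPM + 1) (exact permutation test, two-sided unadjusted p = 0.0260, n = 5 and 6, 1 of 8 such tests). That p was 0.0571 without wild-type Cre replicate 1, 2 or 5. In mutants the Cre difference was -0.50 (exact p = 0.364, n = 6 and 6), where replicates 1 and 5 without Cre held 5.17 and 3.52 CPM at depths of 6.97 and 1.70 counts per CPM.

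Klb, the co-receptor that makes a cell responsive to FGF21, was near the limit of detection in all groups. Its counts were 2, 1, 1, 8, 6 and 0 in mutant Cre libraries and 0, 1, 0, 0 and 0 in wild-type Cre libraries. Without Cre they were 3, 2, 0, 2, 0 and 0 in mutants and 0, 0, 1, 7, 9 and 4 in wild type. Per CPM of depth, mutant Cre libraries had 7.19 times the wild-type Cre rate, with an exact counting interval of 1.14 to 299.7 that does not include the spread between libraries. The difference in mean log2(CPM + 1) was 0.13 (exact permutation test, two-sided unadjusted p = 0.0476, n = 6 and 5), and the p was 0.0857 or 0.0873 without any 1 of 8 libraries: mutant Cre replicate 1, 3, 4 or 5, or wild-type Cre replicate 1, 3, 4 or 5. By the mean over libraries, mutant Cre libraries at 0.106 ± 0.114 CPM lay no higher than mutants without Cre at 0.160 ± 0.213 CPM. In pooled counts per CPM of depth, mutants with Cre had 1.16 times the rate without Cre (exact counting interval 0.463 to 3.29). Klb was thus not shown to be above the precipitate background in either genotype with Cre, though the mutant interval includes a rise. The Cre differences were -0.06 in mutants (exact p = 0.647, n = 6 each) and -0.18 in wild type (exact p = 0.0909, n = 5 and 6).

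Of the 8 ligands of these receptors, Fgf21 in the mutant and Hgf with Cre were called higher, and the other 6 had few counts. Fgf21 had 142 to 416 counts per library in mutant Cre libraries (11.5 ± 5.61 CPM, n = 6) and 3 counts in all 5 wild-type Cre libraries together (0.0558 ± 0.0786 CPM). It was the most increased of 12399 genes (edgeR adjusted p = 5.68e-05), while its co-receptor Klb totalled 18 counts in the same mutant libraries and Fgfr1 totalled 4585. Mutant libraries without Cre held 41 Fgf21 counts in all and wild-type libraries without Cre 3. Hgf, the MET ligand, rose with Cre over both genotypes, with a log2 fold change of 2.06 (SE 0.60, adjusted p = 0.00509), at 0.597 CPM on average in mutant and 1.49 CPM in wild-type Cre libraries, against 0.128 CPM in mutants and 0.312 CPM in wild type without Cre. With Cre, mutant over wild type gave a log2 fold change of -1.32, which was not called (adjusted p = 0.159). Gdnf (1, 0, 4 and 38 counts in mutant Cre, wild-type Cre, mutant no-Cre and wild-type no-Cre libraries), Nrtn (11, 12, 7 and 15), Cntf (3, 7, 9 and 46), Lif (0, 0, 21 and 6), Clcf1 (7, 4, 23 and 34) and Ctf1 (22, 1, 3 and 22) stayed under 1 CPM on average in every group.

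Other receptors and signalling genes of the same pathways were read from lists, with counts set beside the 22.1% of all genes called higher and 34.7% called lower with Cre in the 4-group fit. Of the other FGF family genes, 4 of 8 were tested, of which 1 rose (Fgf21) and 3 fell: Fgfr2 (-2.01), Fgfr3 (-2.16) and Fgfrl1 (-2.19 on the log2 scale). Fgfr1 thus rose where the 3 other FGF receptor genes tested fell, and Fgfr3 is also an astrocyte marker. Of the other interleukin 6 family genes, 4 of 13 were tested and all 4 fell, namely Ctf2 (-4.09), Osmr (-2.79), Il6ra (-2.66) and Il11ra1 (-0.99), binding subunits or ligands that work through gp130. Of 13 JAK and STAT genes tested, Jak1 (1.51) and Stat3 (1.34) rose and Tyk2 (-2.41) and Ptpn6 (-2.88) fell. Of the GDNF family genes beyond the 3 receptors, 3 of 9 were tested and none was called (Gfra4 0.76, Ncam1 -0.29 and Sdc3 -0.24). Of 8 genes of the HGF system, 3 were tested and 2 rose, Hgf and the HGF-activating protease Hpn (2.06). Among 20 kinase adaptors tested, 3 rose and 7 fell, with Gab1 at -2.49, Sos2 at -1.58, Plcg1 at -1.44 and Ptpn11 at -1.11. Among 18 ERK targets and feedback genes tested, 4 rose, including Fos (1.95) and Etv5 (0.88), and 6 fell, including Etv1 (-1.67) and Spred1 (-1.21). Markers of glia fell together, 14 of 14 oligodendrocyte, 11 of 12 astrocyte and 10 of 12 microglial genes, while 14 of 15 motor neuron markers rose. Between mutant and wild-type Cre libraries, Fgf21 was the only gene called in these 7 pathway lists, and glial markers there were higher on the whole without a call (median log2 fold change 1.61 over 14 oligodendrocyte and 0.99 over 12 astrocyte markers). Motor neuron and cholinergic markers were lower on the whole in the same comparison, also without a call (median -0.65 over 14 tested, 2 of them positive). Among them, Chat gave -0.75 (edgeR adjusted p = 0.220). The part of this marker content in the receptor values was not tested.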

How the data were processed

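The authors deposited per-library RSEM gene tables with expected counts, TPM, FPKM and transcript lengths. Per the submitters' processing notes, Bowtie2 2.2.0 and RSEM 1.2.12 were used; the sources used here give neither genome build nor annotation version. The deposited expected counts, rounded, were tested with edgeR 4.0.16 (R 4.3.3): filterByExpr (counts of at least 10, summing to at least 15), TMM scaling, quasi-likelihood F-tests, and Benjamini-Hochberg adjustment over all genes tested at 0.05. Fits used the 2 groups compared, or all 4 groups for the average Cre effect and the difference. CPM are TMM-scaled over all 23 libraries. The deposited TPM and FPKM values were not tested. Low receptors were compared by exact permutation of log2(CPM + 1), a pseudocount of 1. Intervals on counts are 95% and cover counting error only. Genes were named by a rule: the 9 receptors, their ligands, the 4 listed genes per pathway with the smallest p for Cre, and the 3 genes most correlated with each receptor, in part. The receptors and lists were chosen with earlier results of these data known. The labels do not say whether libraries come from separate animals, and p-values then reflect only how much libraries vary, which may be technical. No pair of replicates agreed within sampling noise. The edgeR steps were tested on simulated data, where most true 2-fold changes went uncalled in each comparison of 2 groups. A receptor that was not called is thus not shown to be unchanged.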

Additional observations from a re-analysis of the deposited data

Results flagged for a closer look

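In 3 of 36 groups of libraries (9 receptors in 4 groups), 1 library stood far from its group, where chance gives about 1 in 20 groups of normally distributed values. That rate does not apply to groups with counts of 0, as for Klb and in part for Met. Lifr in wild-type no-Cre replicate 2 stood at 121.6 CPM, far above the other 5 libraries. Klb in wild-type Cre replicate 2 stood at 0.0439 CPM, which is 1 count where the other 4 libraries held 0. Fgfr1 in wild-type no-Cre replicate 1 stood at 7.54 CPM, below the other 5 libraries of its group.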

How the results depend on the processing

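Of 1065 receptor fold changes under alternatives, 978 kept their direction and their side of the threshold, 12 lost a call, 13 gained one and 62 changed sign. Many of these fits left out 1 library and so shared nearly all data with the main fit. The count is therefore no independent support. With library totals only, in place of TMM, the median of all genes moved to 0.79 for genotype with Cre, 1.13 for Cre in mutants and 0.39 for the average Cre effect, 92.2% and 71.5% of calls for the last pair were higher (42.4% and 38.9% with TMM), and 1 receptor was called for Cre in wild type, with Gfra1 (1.88, adjusted p = 0.0845), Fgfr1 (1.03, adjusted p = 0.344) and Il6st (-0.77, adjusted p = 0.516) no longer called. Sign changes under totals were, for genotype with Cre, Ret 0.56, Gfra1 0.53, Lifr 0.62, Fgfr1 0.76 and Met 0.22; for Cre in mutants, Met 0.26 and Klb 0.17; for Cre in wild type, Gfra2 0.38; for genotype without Cre, Ret -0.24, Gfra1 -0.51, Gfra2 0.17, Fgfr1 -0.21 and Klb -0.19; for the average Cre effect, Met 0.82 and Il6st 0.19; for the difference, Ret 0.79, Gfra1 1.04 and Fgfr1 0.97. Cntfr by genotype with Cre was -0.0056 with RLE factors, -0.0051 with DESeq2 and -0.012 without ribosomal RNA genes. Without a filter, Gfra2 was 0.10 for Cre in wild type, Gfra1 -0.024 for genotype without Cre and Met 0.0089 for the average. With a filter at 5 CPM, Lifr was -0.042 for Cre in wild type, and Gfra2 was -0.020 in mutants and -0.10 on average. With the title number as a block, Fgfr1 by genotype was 0.19 (0.16 without title number 18405), Gfra2 -0.0017 for Cre in mutants, 1.71 by genotype without Cre, -0.77 on average and -0.63 for the difference, Lifr -0.031 and Il6st -0.39 in mutants, and Met 0.064 on average. The title numbers are not stated to mark a shared litter or day, so the block is no pairing from the design. It added Il6st on average (-0.55, adjusted p = 0.0447) and Lifr in wild type (0.72, adjusted p = 0.0252). The setting kept only title numbers found in more than 1 of the groups compared. For Cre in mutants that left 18405 (2 libraries with Cre, 1 without), and for genotype without Cre 20301 (4 mutant, 2 wild type). With 1 number left, those fits held no block term and used fewer libraries than the main fits.

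Receptors called numbered 1 for genotype with Cre under DESeq2 and 5 for Cre in mutants without title number 18405. Leaving out each library gave 0 to 1 and 3 to 5 for these counts. It moved the small estimates across 0: average Cre effect of Gfra2 -0.074 to 0.48 and Met -0.32 to 0.36; Cre in wild type, Gfra2 -0.24 to 0.82; Cre in mutants, Klb -0.10 to 0.0086; difference, Gfra2 -0.60 to 0.62 and Lifr -0.10 to 0.57; genotype with Cre, Cntfr -0.067 to 0.14 and Fgfr1 -0.17 to 0.050; genotype without Cre, Klb -0.063 to 0.045, Gfra1 -0.11 to 0.19 and Gfra2 -0.47 to 0.79. Genes called in all moved by over 1.5 times: for genotype with Cre from 41 to 17 under totals, 413 under DESeq2, 89 without a filter, 19 with the block, 11 with all 23 libraries in one fit and 10 to 1054 leaving out a library (1054 without wild-type Cre replicate 2); for Cre in wild type from 5738 to 906 under totals and 3701 at 5 CPM; for Cre in mutants from 4247 to 8175 without a filter; for genotype without Cre from 0 to 31 without a filter; for the average from 8211 to 4731 under totals; and for the difference from 3 to 1 under totals, 42 under DESeq2, 9 without a filter and 1 to 8 leaving out a library. The causes were not tested. Met and Klb had too few counts for the fits between 2 groups.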
